A study of Mus musculus with 11 samples.

Results

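The miR-26 family of the mouse is 3 hairpins that give 5 mature miRNAs, and all 5 were listed by name among the 1966 mature miRNAs counted in 11 small RNA libraries of embryonic stem cells. They are mmu-miR-26a-5p, which 2 hairpins (Mir26a-1 and Mir26a-2) produce in identical form, mmu-miR-26b-5p from Mir26b, and the opposite arms mmu-miR-26a-1-3p, mmu-miR-26a-2-3p and mmu-miR-26b-3p, written below without the prefix. The members were chosen by name and not by their counts, though with earlier results of these data known. The study compared forms of DGCR8, which binds primary miRNA transcripts and guides the nuclease Drosha in cutting out their hairpins. The groups were 3 E518K libraries (clones 8, 13 and 15; labelled DGCR8 E518K/E518K, with the vector pSB ET iE-FlagDGCR8-E518K), 3 KO libraries (DGCR8 -/-, not transfected, all labelled clone 261) and 3 wild-type (WT) libraries (clones 10, 12 and 16; labelled DGCR8 wt/wt, with the vector pSB ET iE-FlagDGCR8-wt). Both vectors were delivered together with pCMV(CAT)-SB100X, a Sleeping Beauty transposase plasmid. These 9 libraries came from cells given 300 ng/mL doxycycline over 48 h. E518K clone 8 and WT clone 10 were also sequenced untreated, 1 library each, to look for leaky expression from the vectors. All cells carried the same strain label and were grown without feeders in serum medium with LIF and the inhibitors CHIR99021 and PD0325901. All 3 KO libraries name 1 clone and no label says that they are separate cultures, so KO p-values may measure technical spread only.

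A miRNA hairpin is released by the microprocessor (Drosha with DGCR8), cut again by Dicer, and usually 1 arm, the guide, is loaded into Argonaute while the other is lost. The guide pairs with messenger RNAs through its seed, the bases after its first one. In the miR-26 family the 5p arm is the guide. Its known targets include Ezh2, the methyltransferase of Polycomb repressive complex 2. The hairpins lie in genes for CTD small phosphatases, enzymes that act on RNA polymerase II and the retinoblastoma protein, and in zebrafish miR-26b is known to repress the transcript of its own host during neurogenesis.

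The sequences (RefSeq, GRCm38.p6) are shown because they decide what the counts can tell apart. In the mature forms the capitals mark the seed, bases 2 to 8.
miR-26a-5p: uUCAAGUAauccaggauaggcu
miR-26b-5p: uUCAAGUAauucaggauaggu
miR-26a-1-3p: cCUAUUCUugguuacuugcacg
miR-26a-2-3p: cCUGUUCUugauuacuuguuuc
miR-26b-3p: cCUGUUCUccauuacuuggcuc
Both 5p arms have the same seed, which no other mature mouse miRNA in the RefSeq table carried. Counted from 1 at the 5′ end of miR-26a-5p, miR-26b-5p differs from it by C11U and C21U and is 21 rather than 22 bases long. With 2 substitutions between them, how well the counts separate miR-26a-5p from miR-26b-5p depends on the mismatches the authors' mapping allowed, a setting not given here. The arms miR-26a-2-3p and miR-26b-3p share another seed and differ by 4 substitutions (U9C, G10C, U19G and U20C), while miR-26a-1-3p differs from miR-26a-2-3p by 6, of which A4G falls in the seed.

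In the hairpins, which are shown to place the arms, capitals mark the mature 5p and 3p arms.
Mir26a-1: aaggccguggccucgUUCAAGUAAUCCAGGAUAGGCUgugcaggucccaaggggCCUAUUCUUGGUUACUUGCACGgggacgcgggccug
Mir26a-2: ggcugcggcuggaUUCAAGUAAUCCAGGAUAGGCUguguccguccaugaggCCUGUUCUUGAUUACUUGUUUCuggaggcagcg
Mir26b: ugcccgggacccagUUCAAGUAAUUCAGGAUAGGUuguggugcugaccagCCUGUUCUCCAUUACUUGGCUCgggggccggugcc
Mir26a-1 lies at chr9:119031796-119031885 in intron 5 of 7 of Ctdspl, an intron of 3283 bases. Mir26a-2 lies at chr10:126995530-126995613 in intron 5 of 7 of Ctdsp2, an intron of 1946 bases. Mir26b lies at chr1:74394310-74394394 in intron 4 of 6 of Ctdsp1, an intron of 564 bases. All 3 are on the plus strand, the strand of their hosts, and no other RefSeq hairpin overlaps them. The stretch between the arms is 17 bases in Mir26a-1, 16 in Mir26a-2 and 15 in Mir26b, against a median of 16 over 644 hairpins with 1 position and both arms. The letters GUG (searched on the hairpin's own strand) occur in that stretch in all 3, as in 26.7% of those 644 hairpins. Predicted folding energy per base was −0.55 kcal/mol in Mir26a-1, −0.53 in Mir26a-2 and −0.51 in Mir26b, with a median of −0.41 over 1005 hairpins. The host transcripts were not measured in these libraries.

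Total miRNA counts ran from 1050564 to 1797240 in induced E518K, from 166676 to 208846 in KO and from 3394216 to 6128734 in induced WT, and were 264507 in untreated E518K and 1421247 in untreated WT. The files appear to hold 2 counts for most small RNAs, since 90.3% of counts from 1 to 40 were even, as were 32 of the 34 member counts above 0. A floor of 6 counts (3 small RNAs) per library was therefore used for values of 0. It equals 3.93 to 6.04 CPM in induced E518K, 12.8 to 18.3 CPM in KO and 1.11 to 2.94 CPM in induced WT. The summed level of 10 listed stem cell miRNAs of the miR-290 and miR-302 clusters was 34903 to 40272 CPM in induced E518K, 99.0 to 238 CPM in KO and 86564 to 114073 CPM in induced WT. Of these 10, the 4 miR-302 arms were at 0 in KO. These arms are themselves products of the microprocessor, so their level in KO is no check of the cell type. The summed level of 12 listed markers of muscle, liver, neural, blood, mesenchymal and endothelial cells was 1057 to 1986 CPM in induced E518K, 4033 to 5891 CPM in KO and 3811 to 5734 CPM in induced WT. Of these 12, 11 had counts in induced E518K (miR-223-3p was at 0), 8 in KO (miR-124-3p, miR-451a, miR-223-3p and miR-126a-3p were at 0) and 11 in induced WT (miR-223-3p was at 0). The part of either list in the miR-26 results was not tested, and in bulk RNA fewer cells of a type and less RNA per cell cannot be told apart. Levels are CPM, the usual depth-scaled count unit, after TMM (trimmed mean) scaling within the miRNA counts, so a level is relative to the other miRNAs of the same library.

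Most counts of the family were miR-26a-5p: 41926 of 42633 in induced E518K, 342 of 416 in KO and 112734 of 118342 in induced WT. It ranked 14 by mean level among the 901 miRNAs detected in induced E518K, 55 among 693 in KO and 14 among 1101 in induced WT. The 5 members together held 1.01% ± 0.241 of the miRNA counts in induced E518K, 0.0777% ± 0.0217 in KO and 0.739% ± 0.190 in induced WT (SD, n = 3 each). Of the 4 members that passed the low-count filter, 1 was lower in E518K than in WT, 3 were lower in KO than in WT, and 3 were higher in E518K than in KO. In both comparisons with KO, 1 of the 3 is miR-26a-2-3p, which had no counts in KO and passed the filter through the other groups. The member that did not pass was miR-26a-1-3p. Of all 730 tested miRNAs, 63.6% were called in E518K against WT (28.2% higher and 35.3% lower), 88.4% in KO against WT (30.0% higher and 58.4% lower) and 68.1% in E518K against KO (41.9% higher and 26.2% lower). Nothing is read from the members' counts beside such shares. When libraries were scaled by the summed DGCR8-independent miRNAs, 12 were higher and 498 lower in E518K against WT.

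**Figure D1:**
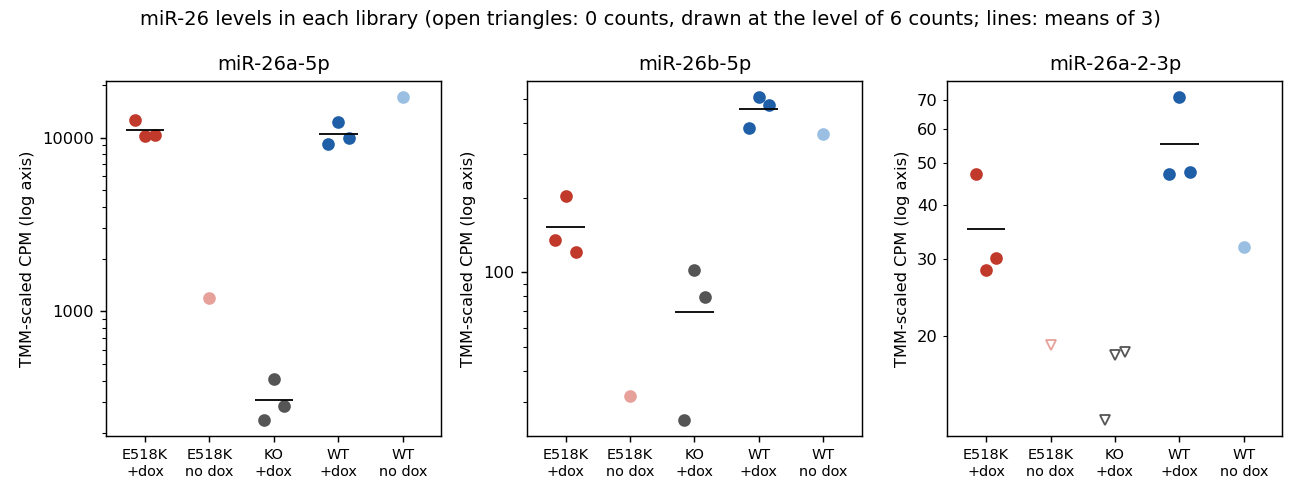
Levels of miR-26a-5p, miR-26b-5p and miR-26a-2-3p (TMM-scaled CPM, log axis) in each of the 11 libraries, by group (dox, doxycycline), with a line at the mean of 3 libraries and open triangles for libraries at 0 counts, drawn at the level of 6 counts. miR-26a-5p lies between 9162 and 12588 CPM in the induced E518K and WT libraries alike, while miR-26b-5p is lower in all 3 E518K libraries than in all 3 WT libraries.

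The first comparison set mature miRNA levels with E518K against those with wild-type DGCR8, and processing itself was not measured. Within the family, miR-26b-5p was 2.97-fold lower in E518K than in WT and passed the test, while miR-26a-5p did not. miR-26a-5p had 12588, 10269 and 10406 CPM in E518K clones 8, 13 and 15, against 9162, 12325 and 9903 CPM in WT clones 10, 12 and 16. The groups overlapped, with the highest value in E518K clone 8 and the lowest in WT clone 10. Its log2 fold change was 0.08 ± 0.38 (SE; 95% interval −0.67 to 0.83; adjusted p = 0.85, edgeR quasi-likelihood test), an interval that leaves room for a change of either sign.

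miR-26b-5p had 135, 202 and 121 CPM in E518K clones 8, 13 and 15, against 380, 507 and 473 CPM in WT clones 10, 12 and 16. Every E518K library was below every WT library. The mean was 153 ± 43.4 CPM in E518K and 453 ± 65.8 CPM in WT (SD, n = 3 each), a log2 fold change of −1.57 ± 0.41 (adjusted p = 0.00035, edgeR). Without WT clone 16 the value was −0.86 and no longer passed (adjusted p = 0.12); the median of all tested miRNAs then moved to 0.73, against −0.14 with all libraries.

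The ratio of the 2 guides in the same library does not depend on how libraries are scaled. For every 100 counts of miR-26a-5p there were 1.07, 1.97 and 1.16 counts of miR-26b-5p in E518K clones 8, 13 and 15, against 4.14, 4.11 and 4.77 in WT clones 10, 12 and 16. The groups did not overlap, and the exact binomial 95% intervals of the miR-26b-5p share of the 5p counts reached at most 2.29% in an E518K library and went down to no less than 3.60% in a WT library. The ratio was 3.21-fold lower in E518K (difference of mean log2 ratios −1.68), and −1.95 to −1.52 when any 1 library was left out. A two-sided exact permutation test gave p = 0.10, the smallest that 3 against 3 libraries allow (adjusted p = 0.18 over 7 such tests of ratios and shares). The untreated library of WT clone 10 had 2.11 counts per 100, below the induced WT libraries and close to E518K clone 13.

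**Figure D2:**
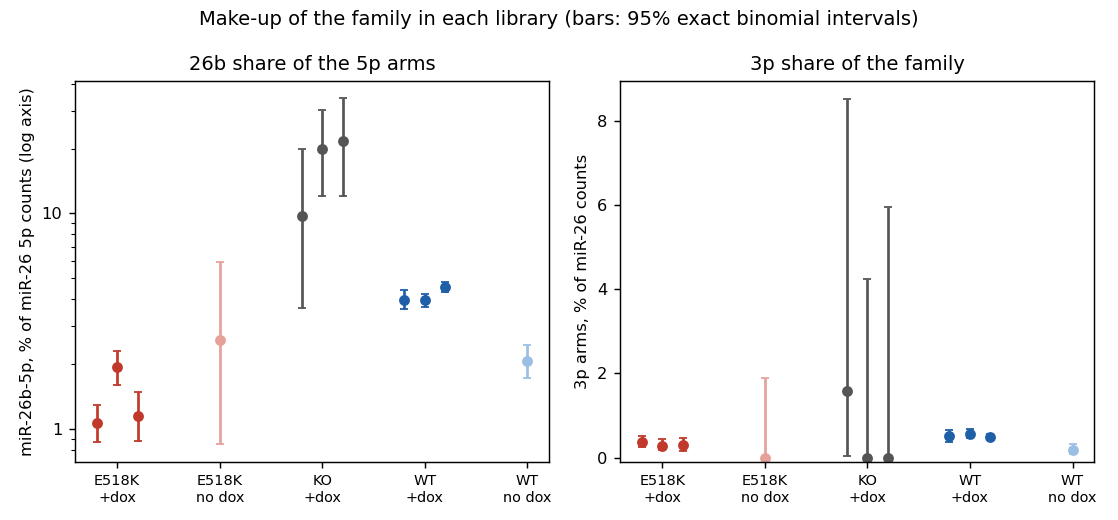
miR-26b-5p as a percentage of the miR-26 5p counts (left, log axis) and the 3p arms as a percentage of all miR-26 counts (right), per library with exact binomial 95% intervals, by group (dox, doxycycline). On the left the 3 induced E518K libraries are lowest, at 1.06% to 1.93%, the 3 induced WT libraries lie at 3.95% to 4.56% and the KO libraries at 9.68% to 21.7% with wide intervals. Untreated WT clone 10 lies at 2.07%, and its interval (1.71% to 2.45%) overlaps that of induced E518K clone 13 (1.60% to 2.29%). On the right the KO intervals span both other induced groups, and untreated WT clone 10 (0.184%) is below the induced E518K libraries.

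The opposite arms were rare. Of these, miR-26a-2-3p carried most counts: 72, 34 and 30 in E518K clones 8, 13 and 15 (47.1, 28.3 and 30.2 CPM), against 96, 234 and 258 in WT clones 10, 12 and 16 (47.1, 71.0 and 47.8 CPM). E518K clone 8 reached the level of the lowest WT library, so the groups overlapped, and the log2 fold change of −0.64 ± 0.48 did not pass (adjusted p = 0.24, edgeR). miR-26b-3p had 2 counts in E518K, all from clone 13, and 22 counts in WT, from clones 12 and 16. Its fold of −1.59 ± 1.53 did not pass (adjusted p = 0.36), and no difference was detectable at this depth. miR-26a-1-3p had 0 counts in every E518K library and 2 counts in WT, both in clone 10, and was too rare to test.

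Since the 2 Mir26a hairpins give the same 5p arm, their 3p arms are the only reads that tell them apart, and nearly all of these matched Mir26a-2. Counts of miR-26a-2-3p against miR-26a-1-3p were 136 against 0 in induced E518K and 588 against 2 in induced WT. The log2 ratio of the 2 arms (0.5 added to each count) did not separate the genotypes (difference 1.31, exact permutation p = 0.40). Without WT clone 10, which held those 2 counts, the difference was 2.54. In the other induced E518K and WT libraries miR-26a-1-3p was at 0. There the ratio follows only the count of miR-26a-2-3p and the added 0.5, so it cannot compare the 2 hairpins. How much miR-26a-5p each hairpin gave was not measured, because a 3p arm can be lost at a different rate from each hairpin.

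Taken as 1 pool, the 3p arms were 0.369%, 0.285% and 0.286% of the miR-26 counts in E518K clones 8, 13 and 15, against 0.501%, 0.569% and 0.483% in WT clones 10, 12 and 16. Every E518K library was below every WT library in this share. The means were 0.313% ± 0.0481 in E518K and 0.518% ± 0.0452 in WT (SD, n = 3 each). The exact binomial intervals of single libraries overlapped, reaching 0.510% in E518K clone 8 and going down to 0.371% in WT clone 10. The E518K shares rest on 72, 36 and 30 counts of 3p arms in clones 8, 13 and 15. The exact permutation p was again 0.10, the smallest possible (adjusted p = 0.18). Leaving out any 1 library kept the difference between −0.23 and −0.18 percentage points. In the untreated library of WT clone 10 the share was 0.184%, below every induced E518K library.

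The second comparison asked what is left of the family without DGCR8. miR-26a-5p had 239, 408 and 287 CPM in KO libraries 1, 2 and 3 (112, 136 and 94 counts), against 9162 to 12325 CPM in WT. No KO library came near a WT library. The mean was 311 ± 87.3 CPM in KO and 10463 ± 1654 CPM in WT (SD, n = 3 each), a log2 fold change of −5.07 ± 0.46 (adjusted p = 6.8e-26, edgeR), or 33.7-fold lower. The size depended on the scaling, from −3.47 with total counts to −10.8 when the pRPM totals were taken as parts of a pool with a constant remainder, and each of the 6 scalings passed.

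miR-26b-5p was also lower, with a smaller fold. It had 25.6, 102 and 79.3 CPM in KO libraries 1, 2 and 3, from 12, 34 and 26 counts, against 380 to 507 CPM in WT. The groups did not overlap, and the log2 fold change was −2.74 ± 0.45 (adjusted p = 3.5e-09, edgeR). Over the 6 scalings it ran from −1.18 with total counts (adjusted p = 0.031) to −8.52 with the pRPM remainder. For every 100 counts of miR-26a-5p there were 10.7, 25.0 and 27.7 of miR-26b-5p in KO, against 4.11 to 4.77 in WT, a ratio 4.59-fold higher in KO (log2 difference 2.20; exact permutation p = 0.10, the smallest possible; adjusted p = 0.18). The KO side of the ratio rests on 72 counts of miR-26b-5p in 3 libraries.

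Among the 3p arms, miR-26a-2-3p had 0 counts in every KO library, against a mean of 55.3 ± 13.6 CPM in WT (SD, n = 3). With TMM scaling it was at least 3.38-fold lower in KO (floor of 6 counts per library, a mean of 16.4 CPM). As a share of counts, its exact binomial upper limits were 0.00353%, 0.00443% and 0.00436% in KO libraries 1, 2 and 3. The WT mean share was 0.00366%, so no minimum fold holds for the share. The edgeR test passed with total counts too (adjusted p = 4.8e-05). miR-26b-3p had 2 counts in KO, all in library 1, against 22 in WT, and its fold of −0.09 ± 1.69 did not pass (adjusted p = 0.96). miR-26a-1-3p had 0 counts in KO, where the level in WT (0.327 CPM) lay under the floor. With 2 counts of any 3p arm in all 3 KO libraries, the 3p share of the family could not be compared there (exact permutation p = 1.0).

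The third comparison set E518K against KO, which shares its libraries with the other 2 comparisons. miR-26a-5p had 10269 to 12588 CPM in E518K and 239 to 408 CPM in KO (log2 fold change 5.16 ± 0.46, adjusted p = 3.4e-26, edgeR). miR-26b-5p had 121 to 202 CPM in E518K and 25.6 to 102 CPM in KO, a log2 fold change of 1.17 ± 0.44 (adjusted p = 0.013, edgeR), with the lowest E518K library just above the highest KO library. This call depended on the setting: with total counts as the scaling the value was 0.062 (adjusted p = 0.95), while it was 1.08 with DESeq2 size factors, 2.11 with halved counts, 3.06 with the pRPM totals, 3.68 with the DGCR8-independent miRNAs and 4.59 with the pRPM remainder, all of which passed. It was also lost without KO library 2 (0.82, adjusted p = 0.19) or 3 (0.64, 0.29) and without E518K clone 8 (0.70, 0.28) or 13 (0.39, 0.49). Without E518K clone 15 it was 2.18. As shares of the miRNA counts, miR-26b-5p held 0.0144% ± 0.00775 in E518K and 0.0138% ± 0.00744 in KO (SD, n = 3 each), within the spread. With TMM scaling miR-26a-2-3p was at least 2.15-fold higher in E518K than the KO floor. As a share of counts its E518K mean (0.00312%) was below the upper limit in every KO library, so no minimum fold holds there. miR-26b-3p did not pass (adjusted p = 0.52). The 26b to 26a ratio was 14.7-fold lower in E518K than in KO (log2 difference −3.88, exact permutation p = 0.10, adjusted p = 0.18).

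The direction of the E518K change depended on the scaling for miR-26a-5p but not for miR-26b-5p. Against WT, miR-26b-5p was at −1.12 with total counts, −1.71 with DESeq2 size factors, −1.57 with the authors' pRPM totals, −4.36 with the summed DGCR8-independent miRNAs and −3.94 when the pRPM totals were taken as parts of a pool with a constant remainder. miR-26a-5p was at 0.49, −0.08, 0.04, −2.69 and −2.33 in the same order, and the last 2 passed the test (adjusted p = 1.5e-10 and 1.4e-07, edgeR). The median of all tested miRNAs was 0.21, −0.29, −0.19, −2.90 and −2.56 in that order and −0.14 with TMM, so under each of the 6 scalings miR-26a-5p was above that median and miR-26b-5p below it. In the deposited pRPM unit (in which the libraries of a group all sum to the same total), miR-26a-5p had 6777 ± 1598 in E518K, 54.0 ± 13.3 in KO and 6612 ± 1679 in WT, and miR-26b-5p had 98.1 ± 53.0, 11.8 ± 6.33 and 291.1 ± 99.6 in these groups (SD, n = 3 each). That total was 683476 in induced E518K and 938495 in induced WT. Because it is 1 value per group, p-values under the 2 pRPM scalings do not measure its spread.

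**Figure D3:**
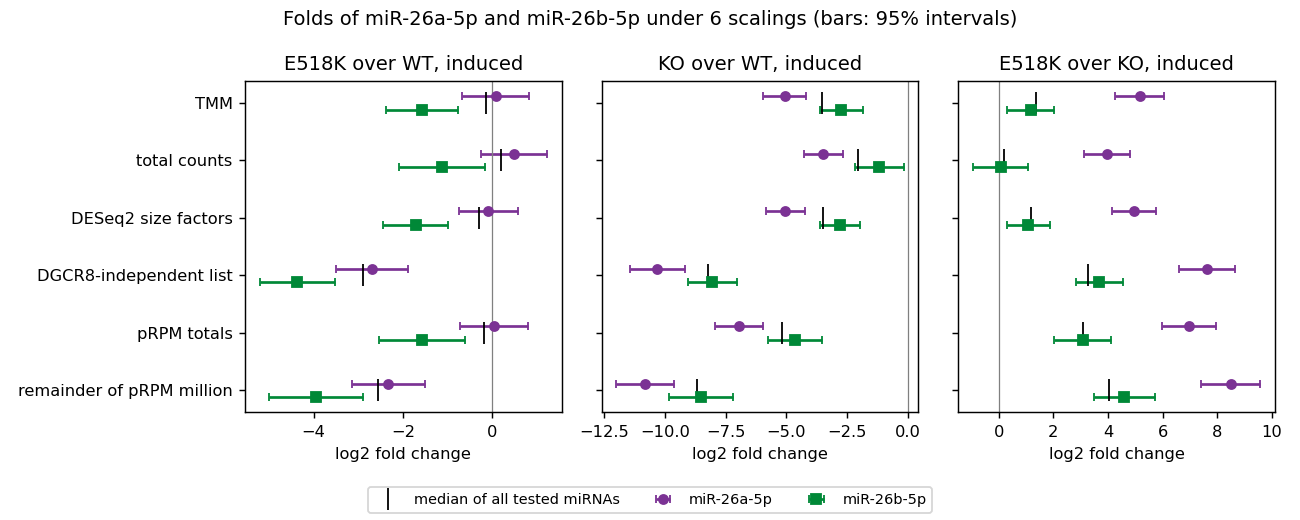
Log2 fold changes of miR-26a-5p (circles) and miR-26b-5p (squares) with 95% intervals under 6 ways of scaling the libraries, in the 3 comparisons of induced groups, with a tick at the median of all tested miRNAs. The values shift together with the scaling: in E518K over WT miR-26b-5p lies below miR-26a-5p in each row, and in KO over WT above it.

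The untreated libraries, 1 for each clone, show the family with no doxycycline, and no test was made on them. In E518K clone 8, miR-26a-5p had 12588 CPM after induction and 1194 CPM untreated (376 counts), a ratio of 10.5. The untreated value was still 3.84 times the KO mean and above the highest KO library. miR-26b-5p had 135 CPM induced and 31.8 CPM untreated in that clone, where 10 counts put it inside the KO range of 25.6 to 102 CPM, though as a share of counts it was below the lowest KO library (0.00378% against 0.00575%). Its 26b to 26a ratio was 1.07 per 100 induced and 2.66 per 100 untreated. miR-26a-2-3p had 72 counts induced and 0 untreated, where the floor is 19.1 CPM.

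In WT clone 10 the untreated library already held the family: miR-26a-5p had 9162 CPM induced and 17067 CPM untreated, the highest TMM-scaled level of any library. As a share of counts the untreated library (0.824%) was below the induced E518K mean (0.992%), and in pRPM (5650) it was below the means of induced E518K and induced WT. miR-26b-5p had 380 CPM induced and 360 CPM untreated, and miR-26a-2-3p 47.1 CPM induced and 32.1 CPM untreated, from 22 counts. The 26b to 26a ratio was 4.14 per 100 induced and 2.11 per 100 untreated, and the 3p arms were 0.501% of the family induced and 0.184% untreated. Ordered by TMM-scaled level, miR-26a-5p ran from KO through untreated E518K to induced WT, induced E518K and untreated WT, and the induced WT and E518K groups did not differ beyond their spread. The order for miR-26b-5p was untreated E518K, KO, induced E518K, untreated WT and induced WT, and untreated E518K lay within the KO range in CPM. This order was the same by share of counts and in pRPM, whereas that of the last 3 groups for miR-26a-5p was not.

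The miRNAs whose level followed miR-26a-5p most closely over the 11 libraries were miR-181c-3p (Pearson's r = 0.99, on log2 of CPM plus 1), miR-30b-5p (0.99), miR-30b-3p (0.99), miR-103-3p (0.99) and miR-3071-5p (0.99), of 468 miRNAs with a mean of at least 10 CPM. These are descriptions over libraries that share the same 5 groups, and the median r of all 468 was 0.76. The hairpin of miR-3071 overlaps that of miR-136 on the opposite strand, so its counts are uncertain. Of the family itself, miR-26a-2-3p had r = 0.96 and miR-26b-5p 0.78.

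Other miRNAs with hairpins in introns of protein-coding genes give a frame for the family. Of 34 listed, 30 had a RefSeq position and 28 of these lay in such an intron on the strand of the host. In E518K against WT, 20 of 33 tested members were lower and 2 higher, against 35.3% and 28.2% of all 730 tested miRNAs. The median log2 fold change was −1.68, while that of all 730 was −0.14. The 3 most abundant were miR-25-3p, from an intron of Mcm7, with 6268 ± 1280 CPM in E518K and 23483 ± 1706 CPM in WT (−1.91 ± 0.40, adjusted p = 6.5e-06, edgeR), miR-103-3p, from introns of the pantothenate kinase genes (−0.53 ± 0.38, adjusted p = 0.21), and miR-148b-3p, from an intron of Copz1 (0.24 ± 0.37, adjusted p = 0.58). Of the 33, 17 had a lower fold than miR-26b-5p and 6 a higher fold than miR-26a-5p, so both guides lay inside the range of this list. Its median was below 0 against WT under each of the 6 scalings, in E518K and in KO. In KO against WT 31 of 33 were lower, against 58.4% of all tested miRNAs, and the fitted folds of the other 2 were also below 0. The median was −5.83, or −4.96 once members with no KO counts were placed at the floor, against −3.54 and −0.31 over all tested miRNAs.

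Other miRNAs known to target Ezh2 were listed for comparison. The list was let-7a, b, c, d, e, f, g and i, miR-101a, miR-101b, miR-138 and miR-214, so most of it was the let-7 family. In E518K against WT 9 of 12 were higher and 1 lower, against 28.2% and 35.3% of all tested miRNAs. Those called higher were all let-7 or miR-101 miRNAs. The median was 1.76, against −0.14 over all tested miRNAs. The list median turned to −1.03 under the DGCR8-independent scaling and to −0.60 under the constant remainder. let-7f-5p, of the family that rises as stem cells differentiate, had 43242 ± 8556 CPM in E518K and 6011 ± 4626 CPM in WT (2.85 ± 0.42, adjusted p = 2.4e-10, edgeR), and no longer passed under these scalings (0.061 and 0.53). miR-101a-3p had 34610 ± 1038 CPM in E518K and 10094 ± 1589 CPM in WT (1.78 ± 0.40, adjusted p = 3.9e-05), which turned to −0.99 and −0.66 under those 2 scalings, and miR-101b-3p had a fold of 0.85 ± 0.39 (adjusted p = 0.045) that turned to −1.92 and −1.58. Among the tested members of this list, 0 of 12 had a lower fold than miR-26b-5p and 9 had a higher fold than miR-26a-5p. In KO against WT 4 were higher and 7 lower, against 30% and 58.4% of all tested miRNAs. The median of −1.10 (−0.67 with absent members placed at the floor) became 0.56 with total counts. The DGCR8-independent miRNAs are a list of mirtrons and other species made without the microprocessor. Of 12 tested, 10 were higher in E518K than in WT and 11 higher in KO than in WT. Of all tested miRNAs, 28.2% and 30% were higher in these comparisons. Scaling by their own sum holds that sum equal in all libraries, so a loss of calls there follows from the scaling itself. With it 0 and 2 were higher and 3 and 4 lower in these 2 comparisons. Under the constant remainder 0 and 0 were higher and 1 and 6 lower. List medians in KO against WT were below 0 under both (−0.49 when scaled by their own sum).

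**Figure D4:**
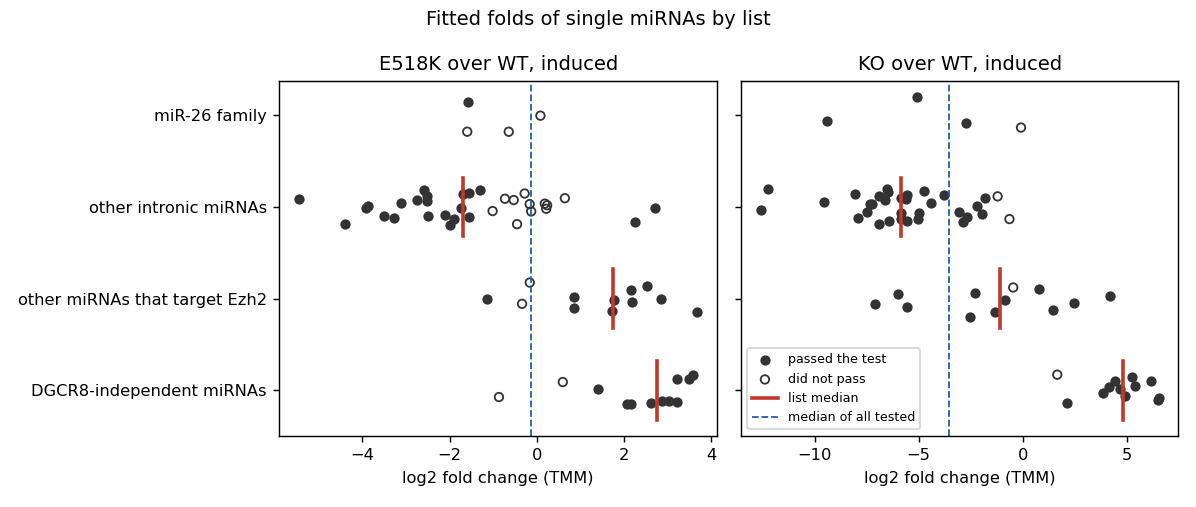
Fitted log2 fold changes (TMM scaling) of the tested miRNAs of 4 lists, with filled circles for those that passed the edgeR test, a bar at the median of each list except the miR-26 family and a dashed line at the median of all 730 tested miRNAs; folds of miRNAs at 0 in a group are fitted values, not bounds. In E518K over WT the median of the other intronic miRNAs is −1.68 and that of the DGCR8-independent miRNAs is 2.75, with miR-26b-5p at −1.57 and miR-26a-5p at 0.08.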

How the data were processed

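The authors deposited counts per mature miRNA, not normalized, and the same miRNAs in a scaled RPM unit named pRPM in the deposited file. STAR, bedtools and the build GRCm38.p6 are named, per the submitters' processing notes, without versions or settings. Turned back into reads, all pRPM values above 0 (100%) were whole within 0.01, and these reads equalled the counts (100%). A count test on them is therefore the one reported, with the same 464 calls in E518K against WT. A file labelled as piRNA counts was identical to the pRPM file and was not used. Counts were tested with edgeR 4.0.16 in R 4.3.3 (quasi-likelihood test with robust fitting of 11 libraries and 5 groups, TMM, filterByExpr with minimum count 10 and minimum total 15, Benjamini-Hochberg adjustment over 730 miRNAs, threshold 0.05); standard errors are the fold divided by the root of F. All groups share 1 estimate of the spread. Ratios and shares within a library (0.5 added to both counts for log2 ratios) were compared by two-sided exact permutation tests (SciPy 1.17.1). Binomial intervals are exact (Clopper-Pearson, 95%) on counts divided by 2. Intervals and floors cover counting error only. Hairpins were folded with ViennaRNA 2.7.2; host introns are from GENCODE principal transcripts on GRCm38. The fit was tested on simulated data. Chi-square between replicates was 17.9 to 490 per degree of freedom, so no pair was counted as 1 sample. The labels give no batches. Alternatives were 5 other scalings, DESeq2 1.42.0, no filter, halved counts, 2 groups only and each library left out. The members, lists and tests were chosen with earlier results of these data known. Named miRNAs were the members, the 5 most correlated with miR-26a-5p, and the 3 most abundant of each comparison list.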

Additional observations from a re-analysis of the deposited data

Results flagged for a closer look

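With TMM scaling, the response of miR-26a-5p to doxycycline went in opposite directions in the 2 clones that were sequenced with and without it. The log2 ratio of the induced to the untreated library was 3.40 in E518K clone 8 and −0.90 in WT clone 10. Each ratio compares 1 library with 1 library, and the difference between the clones was not tested. With total counts as the scaling the ratios were 2.91 and −0.58, and in the authors' pRPM unit 5.22 and −0.13, in the same order. Scaling by the DGCR8-independent miRNAs or by the pRPM remainder was not run on these ratios. The DGCR8-independent miRNAs held 0.880% of counts in untreated WT clone 10, against 0.104% to 0.180% in induced WT. The pRPM totals were 685878 and 938495. Either scaling would therefore raise the WT ratio, so its direction depends on the scaling. For miR-26b-5p both ratios were above 0, at 2.09 in E518K clone 8 and 0.08 in WT clone 10.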

How the results depend on the processing

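No paired analysis was possible because the groups compared share fewer than 2 replicate numbers. Against WT, the number of members called in E518K was 1, and it was 0 to 1 when 1 library was left out. It became 4, all lower, when scaled by the DGCR8-independent miRNAs and 4 with a constant pRPM remainder. Of all 730 tested miRNAs, 498 were lower and 12 higher under the first of these scalings. Under the second 460 were lower and 13 higher, so nothing is read from the members' counts. The E518K value of miR-26a-5p turned to −0.083 with DESeq2 size factors, −2.69 with the DGCR8-independent scaling, −2.33 with the pRPM remainder and −0.083 with DESeq2's own test, and ran from −0.11 to 0.75 with 1 library left out. That of miR-26b-5p ran from −1.82 to −0.86 with 1 library left out. Against KO, miR-26b-5p in E518K was 0.062 with total counts and ran from 0.39 to 2.18 with 1 library left out. The KO value of miR-26b-3p against WT (−0.09) turned to 1.43 with total counts, 0.15 with DESeq2 size factors, 0.46 with DESeq2 and 0.17 with no filter, and ran from 0.058 to 1.14 over the 4 of 6 libraries that could be left out. miR-26b-3p was also at −1.86 with the pRPM totals, −4.90 with the DGCR8-independent scaling and −5.45 with the pRPM remainder. The last 2 passed (adjusted p = 0.00048 and 0.00014, edgeR), where the median of all tested miRNAs was −8.23 and −8.68. Its E518K value against KO (−1.51) turned to 0.56 with the DGCR8-independent scaling, 0.18 with pRPM totals and 1.42 with the pRPM remainder. The 3p share in KO minus WT (0.01 percentage points) turned to −0.53 with only the miR-26a arms and ran from −0.52 to 0.28 with 1 library left out; in E518K minus KO (−0.22) these values were 0.31 and −0.48 to 0.31. The ratio of miR-26b-5p to miR-26a-5p was rerun only with 1 library left out and with 1 or 3 added to both counts, and kept its direction in all 3 comparisons. Because the groups did not overlap, leaving out 1 library could not turn it, so that run is no check of the direction. The causes were not tested. With halved counts 600 miRNAs passed the filter, against 730. miR-26b-3p could not be fitted with halved counts, with only the groups compared, without WT clone 16 or without KO library 1. The log2 ratio of the 2 miR-26a 3p arms has no value in KO, where both were at 0.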

Other observations

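A miRNA from outside the family, singled out after its values were seen, shares the seed of miR-26a-2-3p and miR-26b-3p. Of the 4 mature mouse miRNAs with that seed, miR-6932-3p had 8 counts in the 3 induced E518K libraries (6, 0 and 2 in clones 8, 13 and 15), 66 in the 3 KO libraries (30, 18 and 18) and 0 in the 3 induced WT libraries. It had 4 counts in untreated E518K clone 8 and 2 in untreated WT clone 10. In the same KO libraries miR-26a-2-3p had 0 counts and miR-26b-3p 2. The other, miR-7039-3p, had 0 counts in every library.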
